A study of Mus musculus with 48 samples.

Results

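The 12 libraries with the highest and the 12 with the lowest level of *Fos* were set against each other, out of 48 libraries of mouse amygdala collected about an hour after a swim test. They were chosen by ranking all 48 libraries on the deposited TPM of *Fos*, so *Fos* is left out of every count below and the contrast between the sets is a description with no test. TPM is a gene's length-scaled share of all transcripts in a library. The high set held 6 WT vehicle, 3 *Brd1*+/- fluoxetine, 2 WT fluoxetine and 1 *Brd1*+/- imipramine library. The low set held 3 *Brd1*+/- vehicle, 3 *Brd1*+/- fluoxetine, 2 WT imipramine, 2 *Brd1*+/- imipramine, 1 WT fluoxetine and 1 WT vehicle library. The other 24 libraries lay between the sets.

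All mice were females of the strain labelled C57BL/6NTac-Brd1, aged 8 to 11 weeks, and every group had 8 libraries. They were wild type (WT) or *Brd1*+/-, that is, heterozygous for a targeted deletion in *Brd1*, which encodes a bromodomain protein that works with histone acetyltransferases. Each genotype was given saline vehicle, imipramine (10 mg/kg), a tricyclic antidepressant, or fluoxetine (5 mg/kg), a selective serotonin reuptake inhibitor. Per the study's methods, all groups, vehicle included, were injected on both days of testing, passed through tail suspension on the first day and through the open field and forced swimming on the second, and had the right amygdala punched from frozen slices.

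Immediate-early genes are transcribed within minutes of strong neuronal firing, because calcium and kinase signals activate factors such as CREB and SRF that already sit at their promoters. The first products are mostly transcription factors, such as the Fos and Jun proteins that pair to form AP-1, the Egr zinc finger proteins and the Nr4a receptors. Later products act at the synapse or are secreted, and others shut the signal off. In the amygdala these genes are widely used to mark cells that responded to a stressor.

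Promoters of a few members are shown because the core of the cyclic AMP response element, TGACG or its reverse complement CGTCA, is the letter pattern at which CREB is known to bind. They come from RefSeq on GRCm38.p6, run 5′ to 3′ up to the base before the gene's outermost GENCODE start, and carry the pattern in capitals. The printed stretches are 250 bases long for *Fos* and *Inhba*, 244 for *Fosb* and 98 for *Nr4a3*. Each was taken as 250 bases before the RefSeq start, and bases that lay within the GENCODE gene were then cut off. The genes shown are *Fos*, which chose the libraries, 2 members that were higher in the high set (*Fosb* and *Nr4a3*), and *Inhba*, which was not. The regions are chr12:85473640-85473889 on the + strand for *Fos*, chr7:19310052-19310295 on the - strand for *Fosb*, chr4:48045055-48045152 on the + strand for *Nr4a3*, and chr13:16011601-16011850 on the + strand for *Inhba*.
Fos: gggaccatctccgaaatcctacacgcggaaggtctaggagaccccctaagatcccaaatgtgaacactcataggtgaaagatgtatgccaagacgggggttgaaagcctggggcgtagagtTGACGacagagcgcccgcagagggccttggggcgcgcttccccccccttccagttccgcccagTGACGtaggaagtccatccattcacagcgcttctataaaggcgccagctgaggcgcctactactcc
Fosb: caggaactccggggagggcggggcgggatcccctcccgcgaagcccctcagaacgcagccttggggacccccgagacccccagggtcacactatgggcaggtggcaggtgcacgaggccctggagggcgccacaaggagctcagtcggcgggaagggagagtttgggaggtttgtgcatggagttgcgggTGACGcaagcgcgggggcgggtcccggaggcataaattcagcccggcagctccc
Nr4a3: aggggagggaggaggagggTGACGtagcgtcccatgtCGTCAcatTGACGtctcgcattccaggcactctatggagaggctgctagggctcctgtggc
Inhba: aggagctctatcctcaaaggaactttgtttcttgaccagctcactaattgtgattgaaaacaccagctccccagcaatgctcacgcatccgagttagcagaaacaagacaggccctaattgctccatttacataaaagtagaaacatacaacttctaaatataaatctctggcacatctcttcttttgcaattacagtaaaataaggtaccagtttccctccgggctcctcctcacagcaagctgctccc
The printed stretches held 2 matches in *Fos*, 1 in *Fosb*, 3 in *Nr4a3* and 0 in *Inhba*. Over full windows of 250 bases before a RefSeq start, with both strands searched, 53.6% of 69 windows of the activity genes described below held the pattern, against 17.8% of 32851 windows of all genes. The full windows covered 50 of the 66 activity genes. A second pattern, the CArG box at which SRF is known to bind, was found in 8.7% of the activity windows and in 1.47% of all windows, and in none of the stretches printed. A gene with several starts has several windows. Counted by gene, the first pattern was in 60% of the 50 activity genes and 19.8% of 27025 genes. The CArG box was in 3 of the 50 (6%) and in 1.62% of all genes. A match is a description of letters, not of a bound site. Bases farther than 250 upstream of a start were not searched, so a stretch without a match may have a site beyond it.

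*Fos*, on chr12:85473890-85477273, ranged over the 48 libraries from 2.74 to 58.1 TPM. In the high set it lay between 38.5 and 58.1 TPM with a median of 48.2, and in the low set between 2.74 and 19.5 TPM with a median of 10.3. The last library inside the high set had 38.52 TPM and the first outside it 38.48 TPM, while the first library inside the low set had 19.5 TPM and the last outside it 20.03 TPM. The edges of the sets therefore fell within a continuous run of values. By group, the median of *Fos* was 50.4 TPM in WT vehicle, 24.4 in *Brd1*+/- vehicle, 23.7 in WT imipramine, 26.7 in *Brd1*+/- imipramine, 31.2 in WT fluoxetine and 34.7 in *Brd1*+/- fluoxetine mice. Within a group *Fos* still varied widely, for instance from 4.20 to 43.5 TPM in *Brd1*+/- fluoxetine mice.

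**Figure D1:**
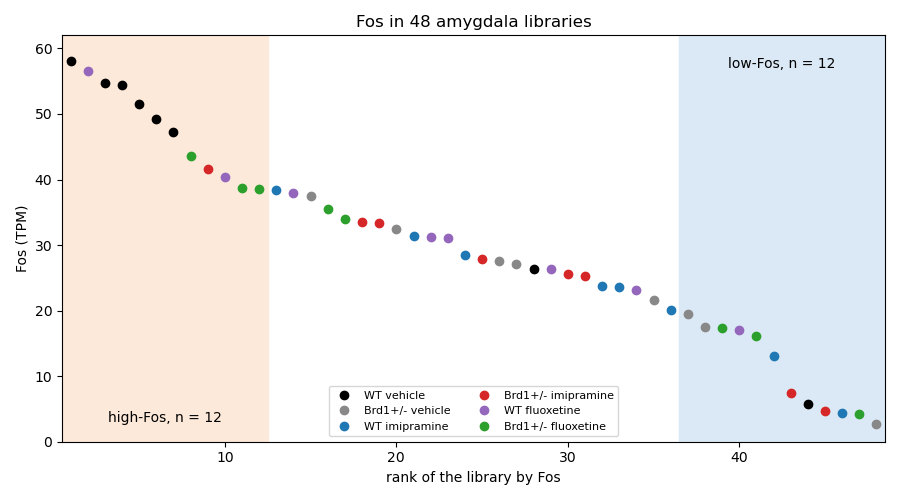
*Fos* in TPM for each of the 48 libraries, ordered by rank, with the colour giving the group and the shading giving the high-Fos and low-Fos sets of 12. WT vehicle libraries fill 6 of the 12 places in the high set, and the 7 lowest libraries come from all groups but WT fluoxetine.

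*Brd1* itself, the targeted gene on chr15:88687034-88734233, had a mean of 35.6, 36.9 and 32.9 TPM in the WT vehicle, imipramine and fluoxetine groups, and of 26.0, 23.4 and 23.5 TPM in the corresponding *Brd1*+/- groups. The label codes of the mice form 1 range in the vehicle groups and another in the drug groups. Drug therefore cannot be told apart from anything else that went with those codes. Within the drug groups the codes also went in part with genotype. The highest codes were all of WT mice, and most WT fluoxetine mice lay above every *Brd1*+/- mouse. The part of the codes in the results below on genotype under fluoxetine and on fluoxetine by genotype was not tested. Each library has an animal code of its own and was taken as 1 mouse. A library had TPM above 0 for 23420 to 27252 genes. The study's methods set a minimum number of reads for each sample, but the depth of each library and the counts behind a TPM value cannot be read from the table, so no counting interval can be given.

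The sets also differed in the tissue that the punches held, and this applies to every result below. *Adora2a*, the adenosine receptor of striatal projection neurons, lay between 0.50 and 209 TPM in the high set with a median of 3.16, and between 2.74 and 547 TPM in the low set with a median of 376.8. The 7 libraries with the least *Fos* were the 7 libraries with *Adora2a* of at least 300 TPM, the lowest of them at 344 TPM and the highest other library at 254 TPM. All 8 striatal markers on the list were at least 1 log2 unit lower in the high set, and their summed level ran from 160 to 4526 TPM in the high set and from 222 to 11240 TPM in the low set. All 6 oligodendrocyte markers were also at least 1 log2 unit lower, with summed levels of 642 to 5248 TPM against 1977 to 16268 TPM. Of the 6 excitatory neuron markers 5 were at least 1 log2 unit higher, among them *Slc17a7*, a glutamate transporter of cortical-type neurons, with a median of 715 TPM in the high set (3.42 to 1346 TPM) and of 11.4 TPM in the low set (1.87 to 670 TPM). None of these markers was at 0 throughout a set. The 9 markers of the amygdala list summed to 156 to 509 TPM in the high set and 173 to 857 TPM in the low set. Their median log2 difference, high minus low, was 1.87. Of the 9, 7 were above 0, 5 were at least 1 log2 unit higher in the high set and 1 was at least 1 unit lower. *Dlk1* was listed at 0 in 1 high and 8 low libraries, among them all 7 with the least *Fos*, and *Tac2* lay between 0 and 8.79 TPM in those 7. The part of this difference in tissue in the results on activity genes was not tested. In punches of this kind, fewer cells of a type and less RNA per cell cannot be told apart.

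**Figure D2:**
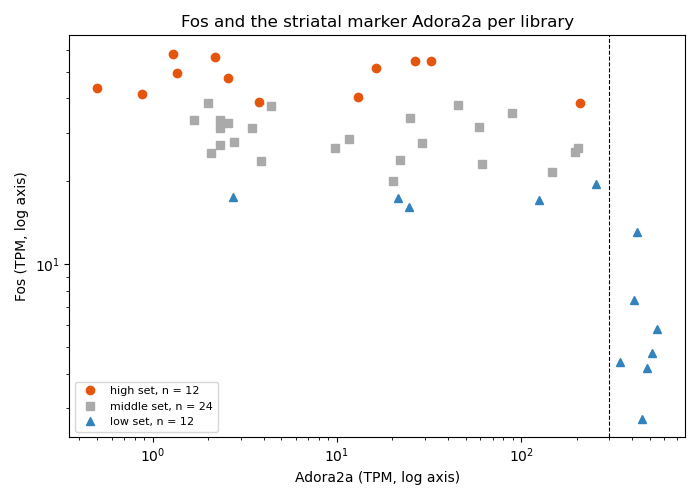
*Fos* against *Adora2a*, both in TPM on log axes, for each of the 48 libraries, with the marker shape giving the set and the dashed line at 300 TPM of *Adora2a*. The 7 libraries right of the line are the 7 with the least *Fos*, all of them in the low set.

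The ranking was also repeated among the other 41 libraries, with the 12 highest again set against the 12 lowest. This choice was made after the values had been seen. The high set stayed as it was, and the new low set ran from 16.1 to 25.6 TPM of *Fos*. The sets still differed in tissue: the median log2 difference, high minus low, was -1.37 over the striatal markers, -2.21 over the oligodendrocyte markers and 2.15 over the excitatory markers. That of the 9 amygdala markers, 1.87 between the full sets, was -0.33 here. Of these 9, 1 was at least 1 log2 unit higher and 1 at least 1 unit lower.

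The activity program was represented by 66 genes in 6 lists, all of which passed the filter of at least 0.1 TPM in at least 8 libraries. Of these, 18 (27.3%) were at least 1 log2 unit higher in the high set, on the scale log2(TPM + 0.1), and 1 (1.52%) was at least 1 unit lower. Over all 27943 genes that passed, 6.74% were that much higher and 3.77% that much lower. The median log2 difference was 0.43 over the 66 genes and 0.12 over all genes, and 51 of the 66 differences (77.3%) were above 0, against 62.9% of all genes. Counts above 0 in the lists below stand against that share. With median-ratio scaling the median over all genes was -0.01, a shift of -0.13, and that over the 66 genes 0.28. Among the 41 libraries, 11 of the 66 (16.7%) were at least 1 log2 unit higher, against 2.47% of all genes, and the median was 0.48 against 0.02.

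AP-1 transcription factors of the Fos and Jun families, *Fos* left out, made up the list with the largest median, 1.25 over 6 genes, 4 of which were at least 1 log2 unit higher. Both the median and the count of 4 include *Junb*, whose level is uncertain, as described below. *Fosb*, whose truncated product is known to accumulate with repeated stimulation, lay on chr7:19302696-19310051 and ranged from 10.4 to 29.2 TPM in the high set (median 22.3) and from 3.54 to 16.2 TPM in the low set (median 5.90). Of the high libraries, 10 exceeded every low library. The log2 difference of *Fosb* was 1.75, and 1.45 among the 41 libraries. *Fosl2*, a further Fos family member, ranged from 12.1 to 51.6 TPM in the high set (median 25.7) and from 5.53 to 16.2 TPM in the low set (median 9.17), a log2 difference of 1.34. Its sets overlapped in only a few libraries, since 10 of the 12 high libraries exceeded every low one. *Jun*, the main partner of *Fos*, differed by 1.16 (0.58 among the 41 libraries), while *Fosl1* and *Jund* differed by 0.24 and 0.17.

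*Junb* could not be given a fold. It was listed at 0 in 4 high and 8 low libraries and in 23 of all 48, while the rest of the 24 libraries were well above it, with 68.1 to 107 TPM in the 8 high libraries above 0 and 42.4 to 69.7 TPM in the 4 low ones. The zeros also differed by group. *Junb* was at 0 in every WT fluoxetine library. Among *Brd1*+/- fluoxetine libraries only replicate 4 was at 0, and the others had 42.4 to 98.6 TPM. Each other group held libraries at 0 and libraries above it. *Junb* therefore did not pass the filter in the test between genotypes under fluoxetine. An exact 0 in a table of TPM can be a failed estimate, and the interval of *Junb* overlaps that of *Prdx2* on the opposite strand, so its level is uncertain. Without *Junb*, 17 of 65 activity genes were at least 1 log2 unit higher and the median was 0.41.

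Of the 8 Egr, Nr4a and *Npas4* genes, only *Nr4a2* and *Nr4a3*, orphan nuclear receptors, were at least 1 log2 unit higher. *Nr4a3* lay on chr4:48045153-48086447 and ranged from 4.97 to 46.2 TPM in the high set (median 34.03) and from 2.88 to 21.5 TPM in the low set (median 7.05). Of the high libraries, 9 exceeded every low one, and the difference was 1.71 (1.03 among the 41). *Nr4a2* differed by 2.48, but it ranged from 2.44 to 120 TPM in the high set and from 0.16 to 105 TPM in the low set, so the sets overlapped almost throughout. *Npas4*, a factor induced selectively by calcium entry into neurons, differed by 0.83, with 7.02 to 18.3 TPM (median 13.9) against 3.86 to 15.0 TPM (median 6.71).

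*Egr2*, a zinc finger factor on chr10:67535475-67542188, was one of the markers given for the contrast. In the high set its values in order of *Fos* were 8.87, 1.08, 11.5, 5.41, 3.15, 8.03, 4.35, 10.5, 9.03, 0.70, 6.58 and 12.4 TPM. In the low set they were 8.45, 2.09, 2.58, 4.08, 2.64, 3.85, 3.50, 3.89, 1.92, 1.98, 3.43 and 1.19 TPM. The log2 difference was 0.81, but the sets overlapped, with 5 of 12 high libraries above every low library and the 2 WT fluoxetine libraries of the high set below all the low ones. The other Egr genes separated less, with differences of 0.27 for *Egr1*, -0.11 for *Egr3* and 0.41 for *Egr4*. Among the 41 libraries these were 0.82, 0.76 and 0.76, and that of *Egr2* was 0.93.

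Among 12 other rapid nuclear regulators 11 were above 0, with a median of 0.33 and 1 gene, *Atf3*, a stress-induced factor, at least 1 log2 unit higher (1.06). *Atf3* was at or below 1.89 TPM in both sets and listed at 0 in 1 low library. *Nfil3*, a transcriptional repressor of clock genes, ranged over 8.24 to 12.97 TPM (median 10.6) against 4.65 to 8.96 TPM (median 6.21), a difference of 0.69. *Klf10*, a factor induced by TGF-beta, differed by 0.68, with 4.26 to 38.1 TPM against 4.94 to 21.3 TPM.

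The 16 genes of signalling feedback had a median of 0.33. *Dusp4*, a phosphatase that inactivates MAP kinases, ranged from 6.26 to 13.8 TPM in the high set (median 9.08) and from 0.77 to 7.19 TPM in the low set (median 1.67), a difference of 1.99. It was above every low library in 11 of 12 high ones, but the difference was 0.71 among the 41. *Spry4*, which restrains growth factor signalling, differed by 1.15 (5.64 to 12.2 TPM against 1.82 to 7.50 TPM), and by 0.60 among the 41. *Sik1*, a kinase that feeds back on CREB coactivators, did not overlap at all, with 11.6 to 17.9 TPM (median 14.3) in the high set and 6.89 to 11.5 TPM (median 8.34) in the low set. *Dusp1*, by contrast, differed by 0.05, and *Spry2* by -0.55.

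Synaptic effectors split sharply. *Nrn1*, a neuritin that promotes neurite growth, ranged from 43.4 to 390 TPM in the high set (median 157) and from 0.90 to 131.6 TPM in the low set (median 10.8), a difference of 3.93. *Pcdh8*, an activity-induced protocadherin, differed by 2.24 with 21.5 to 95.4 TPM against 2.43 to 43.9 TPM, and *Kcnf1*, a silent potassium channel subunit, by 1.33. Among the 41 libraries these differences were 2.50, 0.60 and 1.20. *Syt4*, a synaptotagmin of dense-core vesicles, differed by 0.78 and its sets met without overlap, with 123.2 to 219.5 TPM against 84.2 to 123.1 TPM. *Arc*, the cytoskeletal protein that removes AMPA receptors and the classic synaptic immediate-early gene, ranged from 16.8 to 166 TPM in the high set (median 68.9) and from 26.1 to 98.8 TPM in the low set (median 53.3), a difference of 0.19. *Homer1*, a postsynaptic scaffold, had medians of 101 and 131.9 TPM and a difference of -0.20. Neither gene separated the sets. Among the 41 libraries *Arc* differed by 0.57 and *Homer1* by 0.70.

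Secreted effectors held the second largest difference of all the activity genes. *Bdnf*, a neurotrophin on chr2:109674700-109727007, ranged from 3.38 to 25.8 TPM in the high set (median 13.01) and from 0.09 to 10.0 TPM in the low set (median 0.53), and 8 of 12 high libraries exceeded every low one. The difference was 3.74, and 2.99 among the 41. *Ptgs2*, the inducible cyclooxygenase, was placed on this list although it is an intracellular enzyme. It differed by 1.85 and by 1.92 among the 41, with 0.48 to 14.4 TPM against 0.42 to 3.57 TPM. *Vgf*, the precursor of several neuropeptides, was the only one of the list whose sets did not overlap: 226 to 404 TPM (median 289) against 107 to 178 TPM (median 144), a difference of 1.00.

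*Inhba*, which encodes a subunit of activin and was also a given marker, did not separate the sets. On chr13:16011851-16031621, it ranged from 1.16 to 13.7 TPM in the high set (median 5.05) and from 0.79 to 11.0 TPM in the low set (median 6.48), a difference of -0.06. The 2 WT fluoxetine libraries of the high set had 1.16 and 1.76 TPM. Among the 41 libraries the difference was 0.70. *Tac1*, the precursor of substance P and a transcript of many striatal neurons, was the only activity gene at least 1 log2 unit lower (-1.50, with medians of 110 and 464 TPM), and differed by -0.25 among the 41.

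**Figure D3:**
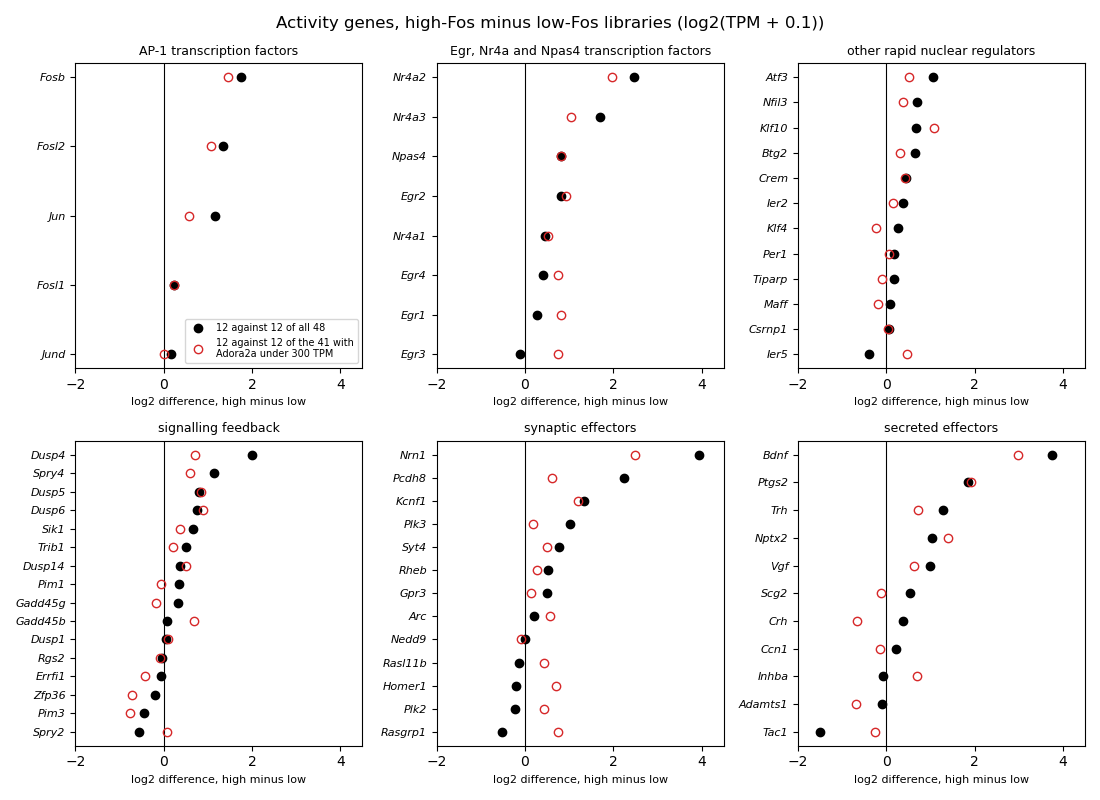
Difference of the mean log2(TPM + 0.1), high-Fos minus low-Fos libraries, for 65 activity genes in 6 lists (*Junb*, often listed at 0, is not drawn). Filled points compare 12 with 12 of all 48 libraries and open points 12 with 12 of the 41 with *Adora2a* under 300 TPM: *Bdnf* and *Nrn1* stay far above 0 in both, whereas 8 genes, among them *Egr3*, *Homer1*, *Inhba* and *Plk2*, cross from below to above 0.

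The 24 libraries between the sets help to place these values. *Fosb*, *Nr4a3*, *Bdnf* and *Vgf* had intermediate medians in the middle libraries, of 10.8, 12.97, 5.92 and 241 TPM. *Arc*, *Homer1* and *Inhba* did not, since their medians in the middle libraries, 33.4, 50.1 and 3.15 TPM, were below those of both sets. The median of *Egr2* was 3.02 TPM in the middle and 3.04 TPM in the low libraries.

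**Figure D4:**
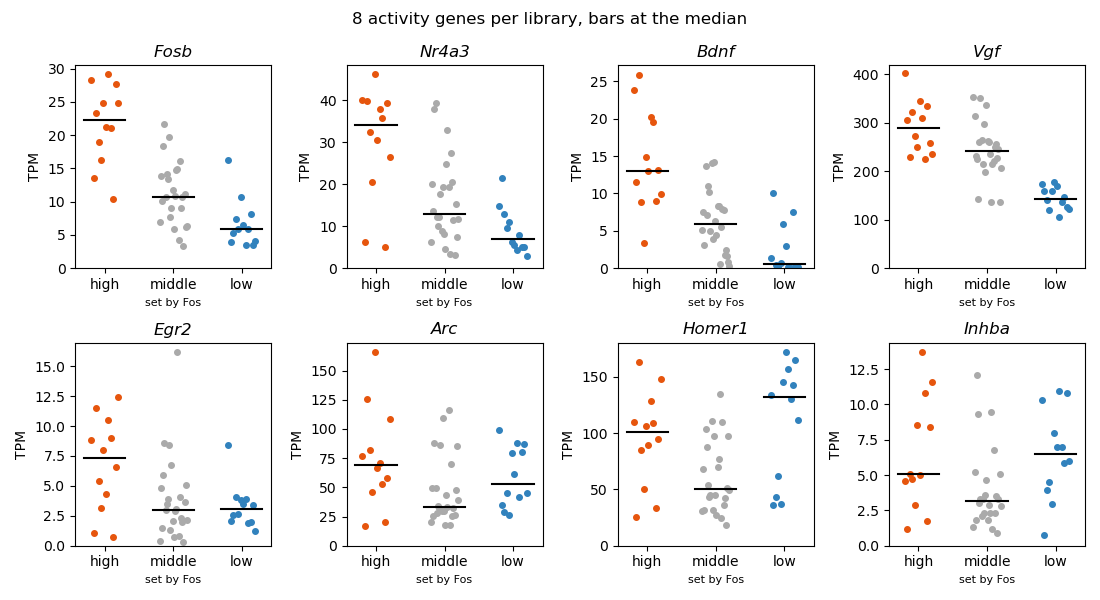
TPM per library of 8 activity genes in the high (n = 12), middle (n = 24) and low (n = 12) sets, with a bar at the median. *Vgf* has no overlap between high and low, and *Homer1* and *Inhba* have their lowest median in the middle set.

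Only 3 of the 66 genes (4.55%) had every high library above every low library, *Sik1*, *Syt4* and *Vgf*, against 0.522% of all genes. Because the contrast was built on *Fos*, nothing is read from these counts beyond their size.

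The direction was then looked at within each group, with the 4 libraries of a group highest in *Fos* set against the 4 lowest. Of the 66 genes, 15 (22.7%) were higher in the upper libraries of all 6 groups, against 16.8% of all genes. They were *Bdnf*, *Dusp4*, *Fosb*, *Fosl2*, *Jun*, *Jund*, *Nfil3*, *Nrn1*, *Plk3*, *Ptgs2*, *Rheb*, *Sik1*, *Spry4*, *Syt4* and *Vgf*. None of the 8 Egr, Nr4a and *Npas4* genes did so. The number of activity genes that were higher in the upper libraries was 39 in WT vehicle, 35 in *Brd1*+/- vehicle, 40 in WT imipramine, 35 in *Brd1*+/- imipramine, 25 in WT fluoxetine and 56 in *Brd1*+/- fluoxetine mice. The median difference over the 66 genes was highest in *Brd1*+/- fluoxetine mice (0.59) and below 0 in WT fluoxetine mice (-0.11), with values of 0.03 to 0.17 in the other groups. Over all genes the median lay between 0.01 and 0.12 in each group, and that of the 66 genes was below it in *Brd1*+/- vehicle (0.05 against 0.12), *Brd1*+/- imipramine (0.03 against 0.10) and WT fluoxetine mice (-0.11 against 0.01). Striatal markers were lower in the upper libraries in every group, with median differences from -0.91 in WT fluoxetine to -3.46 in *Brd1*+/- imipramine mice. Their part in the direction within groups was not tested. With the 2 highest and 2 lowest libraries of each group, so that the groups were balanced, the median over the 66 genes was 0.23 and the difference was 1.31 for *Fosb*, 3.50 for *Bdnf* and 3.94 for *Nrn1*, but 0.14 for *Egr2*, 0.31 for *Npas4*, -0.45 for *Arc* and -0.61 for *Inhba*.

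Other lists moved as follows. Of 14 upstream kinases and factors, none was at least 1 log2 unit higher, and *Camk4*, a calcium-dependent kinase also abundant in striatum, was lower (-1.11). SRF, encoded by *Srf*, differed by 0.01. Of 15 glucocorticoid response genes 3 were above 0 and the median was -0.12. The lowest were *Arrdc2* (-1.39) and *Sgk1* (-1.29), an ion channel regulating kinase with 42.2 to 181 TPM in the high set and 98.3 to 513 TPM in the low set. Of the 15 genes, 4 were lower in the upper libraries of all 6 groups, against 1552 of all 27943 genes. Of 11 heat shock genes 9 were above 0, with *Hspa1a*, an inducible chaperone, highest (1.12).

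Outside the activity lists, the protein-coding genes with the most extreme differences and the same direction in all 6 groups were taken as well. The 6 highest included *Grp*, the gastrin-releasing peptide of amygdala and cortical neurons, with 4.76 to 138.8 TPM in the high set and 0 in 7 of 12 low libraries (at most 15.4 TPM), and *Calb2*, which encodes calretinin, with medians of 144 and 2.55 TPM. The others, *Efcab10*, *Alkal2*, *Acp7* and *Plcz1*, had low levels, with medians of 3.55 to 6.11 TPM in the high set, and were listed at 0 in 5 to 10 of the 12 low libraries. The 6 lowest, *Scn4b*, *Cd4*, *Adora2a*, *Sh3rf2*, *Ido1* and *Lrrc10b*, differed by -4.25 to -5.10. *Scn4b*, a sodium channel subunit of striatal neurons, had medians of 6.13 and 765 TPM, and *Lrrc10b* medians of 6.83 and 374.7 TPM. Among the 41 libraries the difference of *Calb2* was 1.51 in place of 4.30, that of *Scn4b* -2.55 in place of -5.10, and that of *Lrrc10b* -1.72 in place of -4.25.

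Further tests did not compare the sets. All but one compared the labelled groups. The last used *Fos* again, as the slope of each gene on it in the 24 libraries that were in neither set. The ranking had narrowed their range of *Fos*, so this test is not independent of the rule. Each was fitted with limma over all genes that passed the filter, other than *Fos*, with two-sided Benjamini-Hochberg adjusted p-values called below 0.05.

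Across the 6 groups, 2 of 66 activity genes (3.03%) were called by limma's moderated F test, against 1.71% of 27943 genes. They were *Gadd45b*, a stress-induced regulator of DNA demethylation (adjusted p = 0.0349), and *Npas4* (adjusted p = 0.0477). Neither call held in every refit without 1 library: that of *Gadd45b* held in 37 of 48 (limma adjusted p of 0.00809 to 0.0910) and that of *Npas4* in 11 of 48 (0.0138 to 0.107). Without the 7 libraries with *Adora2a* of at least 300 TPM the limma adjusted p was 0.0327 for *Gadd45b* and 0.158 for *Npas4*. *Fosb*, *Bdnf*, *Vgf* and *Nrn1*, all of them higher in the high set, had adjusted p-values of 0.634, 0.986, 0.851 and 0.984.

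The effect of fluoxetine differed by genotype for 7 of 66 activity genes (10.6%), against 1.71% of 26656 genes, and all 7 estimates were positive, so that the change with fluoxetine was more positive in *Brd1*+/- than in WT mice. *Egr4*, *Inhba*, *Npas4*, *Plk2*, *Egr2*, *Nr4a1* and *Gadd45b* were called. Both the gene lists and this term were chosen with earlier results of these data known. The corresponding term for imipramine was not fitted. Without 1 library the count ran from 2 to 13 and moved by over 1.5 times for 20 of the 32 libraries. The median estimate over the 66 genes was 0.61 on the log2 scale, against -0.10 over all genes. Of the Egr, Nr4a and *Npas4* list 4 of 8 members were called and all 8 estimates were positive. Of the upstream list *Srf* was called, with an estimate of 0.78 ± 0.20 (SE, limma adjusted p = 0.0401).

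For *Egr2*, the mean was 7.67 ± 4.46 TPM in WT vehicle, 2.91 ± 2.24 in WT fluoxetine, 3.52 ± 2.36 in *Brd1*+/- vehicle and 6.58 ± 3.70 in *Brd1*+/- fluoxetine mice (SD, n = 8 each). The mean was lower with fluoxetine in WT mice and higher with it in *Brd1*+/- mice, and the groups overlapped. The log2 estimate of the difference in effect was 2.49 ± 0.66 (SE, limma adjusted p = 0.0426). For *Inhba* the 4 means, in the same order, were 6.41 ± 2.85, 2.88 ± 1.52, 3.90 ± 3.11 and 9.10 ± 3.85 TPM, with an estimate of 2.60 ± 0.58 (SE, limma adjusted p = 0.0163). For *Egr4* they were 41.8 ± 9.60, 15.5 ± 10.6, 24.8 ± 11.0 and 34.5 ± 12.01 TPM, with an estimate of 2.28 ± 0.49 (SE, limma adjusted p = 0.0123). In the same group order, *Npas4* had means of 15.6 ± 6.72, 7.68 ± 1.28, 8.27 ± 3.94 and 13.1 ± 5.29 TPM, and *Nr4a1* of 68.7 ± 22.7, 35.4 ± 16.5, 39.2 ± 17.0 and 53.5 ± 19.4 TPM. *Plk2*, a kinase that weakens synapses after strong activity, had means of 151 ± 44.0, 67.7 ± 29.4, 110.1 ± 47.9 and 142.4 ± 48.8 TPM. The calls of *Egr4* and *Inhba* held in all 32 refits without 1 library, and those of *Npas4* in 30, *Plk2* in 15, *Egr2* in 14, and *Nr4a1* and *Gadd45b* in 11 each. The means of *Fos* were 43.4, 33.0, 23.3 and 28.5 TPM, also lower with fluoxetine in WT and higher with it in *Brd1*+/- mice, and *Fos* was not tested. *Slc17a7*, the excitatory marker, had means of 516, 141.8, 214 and 457 TPM and *Mbp*, a myelin protein, of 520, 752, 1213 and 997 TPM in these groups. All 6 oligodendrocyte markers had an unadjusted p under 0.05 for the same term and a median estimate of -2.07, and the excitatory markers a median of 1.37, with no marker called. The part of these differences in tissue in the activity result was not tested. Without the 7 libraries with *Adora2a* of at least 300 TPM, 4 activity genes were called, 2 of them among the 7 above. *Egr4* and *Inhba* kept their calls (limma adjusted p = 0.0287 and 0.0356), while the limma adjusted p was 0.0619 for *Egr2*, 0.0564 for *Npas4* and 0.0742 for *Nr4a1*. Their estimates without those libraries were 2.53, 1.60 and 1.52, against 2.49, 1.62 and 1.50 with them.

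**Figure D5:**
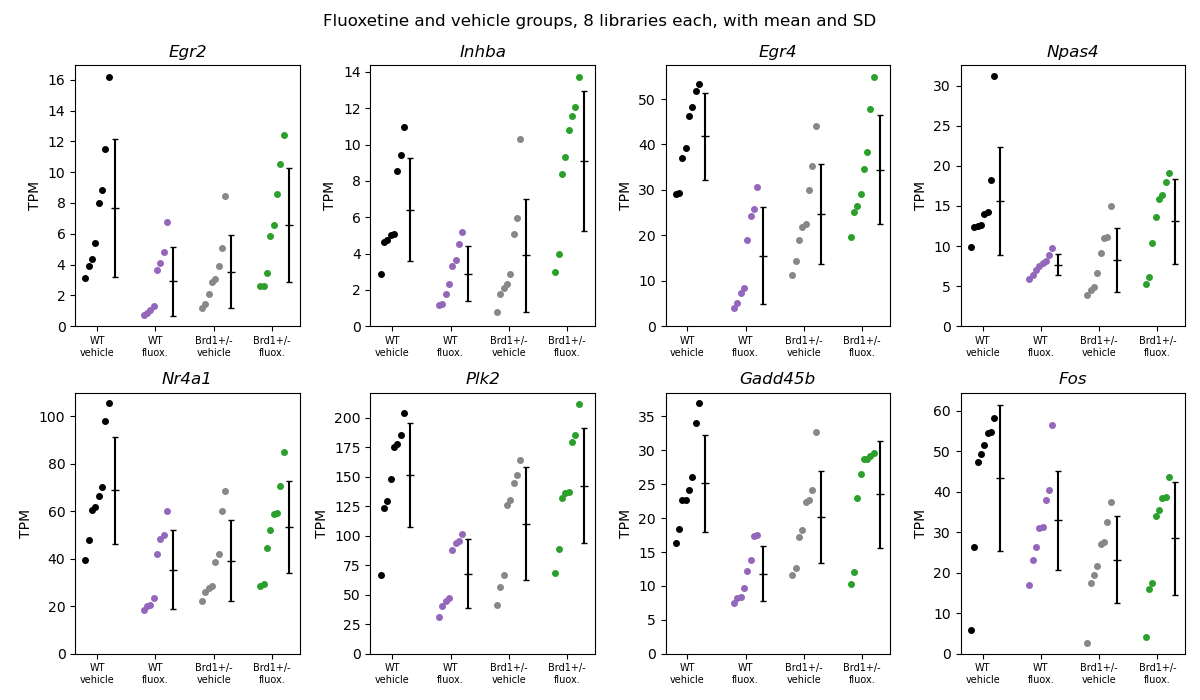
TPM per library for the 7 activity genes called for the fluoxetine-by-genotype term and for *Fos*, in the 4 vehicle and fluoxetine groups of 8, with the mean and SD beside the points. The 7 called genes have a lower mean in WT fluoxetine than in WT vehicle mice and a higher mean in *Brd1*+/- fluoxetine than in *Brd1*+/- vehicle mice.

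Between genotypes under fluoxetine, 1 of 65 activity genes (1.54%) was called, *Inhba*, which was higher in *Brd1*+/- mice by 1.65 ± 0.38 on the log2 scale (SE, limma adjusted p = 0.0369), against 1.54% of 23634 genes called. The share of activity genes was the background share. The call of *Inhba* held in 6 of 16 refits without 1 library, and without the Adora2a-rich libraries its estimate was 1.59 (limma adjusted p = 0.0602).

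In the 24 middle libraries, in which *Fos* spanned 0.94 log2 units, the slope of each gene on log2 *Fos* was fitted with the group as a factor. None of the 66 activity genes was called by limma, against 0.00391% of 25605 genes, which was 1 gene, *Adcyap1*, the precursor of the neuropeptide PACAP, named after its value was seen (4.85 ± 0.71 log2 units per log2 unit of *Fos*, adjusted p = 0.0333). That call was not stable: no gene was called without the filter, with median-ratio scaling, without the trend or with the replicate block. Nor was any gene called without the group term or with the level of the striatal list as a covariate. At an unadjusted p under 0.05 there were 10 activity genes (15.2%), against 9.86% of all genes. The smallest limma adjusted p of the list was 0.289, for *Plk3* (0.61 ± 0.14, SE), a kinase of the stress response. *Bdnf* had a slope of 2.93 ± 0.80, *Nrn1* of 2.77 ± 0.78 and *Vgf* of 0.74 ± 0.22 (SE, limma adjusted p = 0.313, 0.333 and 0.336), whereas *Egr2* had one of -0.18 ± 0.95 and *Arc* of -0.45 ± 0.62. *Bdnf*, *Nrn1* and *Vgf* are given here because of their differences between the sets, so their slopes are a description. The median slope over the 66 genes, 0.02, was that of all genes, 0.02. *Slc17a6*, the glutamate transporter of subcortical excitatory neurons, had a slope of 3.05 ± 0.73 with the same adjusted p as *Plk3*, and *Ppp1r1b*, the DARPP-32 protein of striatal neurons, one of -3.10 ± 1.03 (limma adjusted p = 0.387). These slopes on tissue markers were of the size of those of *Bdnf* and *Nrn1*. Their part in the latter was not tested, since the fit with the striatal list as a covariate was read only for genes called.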

How the data were processed

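RNA from 48 amygdala punches was sequenced as 50 bp single-end reads. Per the study's methods and the submitters' processing notes, the authors aligned reads to GRCm38 with HISAT2 2.1.0, quantified genes with StringTie 1.3.4 and deposited TPM, in 1 table of 52636 genes. TPM keeps no depth, a rise of some transcripts lowers the share of others, and strand use is not given in the sources used here, so overlapping genes are uncertain. Groups, doses and replicate numbers came from the sample labels, which say amygdala, whereas the series' design text names other regions. No column was left without a sample. The members, gene lists and tests were chosen with earlier results of these data known.

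Values were transformed to log2(TPM + 0.1), on which fold changes of low genes are understated. Genes with at least 0.1 TPM in at least 8 libraries of a fit were kept, and models in limma (version 3.58.1, under R 4.3.3), moderated by a trended eBayes prior, replaced the authors' count test. *Fos* was left out of the tests. Code was tested on simulated data. Gene names and positions are those of GENCODE M21 (GRCm38), in which 52489 gene IDs were found.

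Genes were named by rule: *Fos*, *Egr2*, *Inhba*, *Brd1*, the 3 members of each list with the largest difference between the sets and a mean of at least 1 TPM, the 6 highest and 6 lowest other protein-coding genes with the same direction in all 6 groups, at most 6 activity genes called per test, and the most changed member of other lists. Further genes (such as *Arc*, *Homer1*, *Vgf*, *Sik1* and *Syt4*) were chosen after their values were seen. Alternatives were pseudocounts of 0.01 and 1, a filter of at least 1 TPM or none, median-ratio scaling, sets of 8, sets of 2 and 2 per group, eBayes without a trend, the replicate number as a block, 1 fit of all 48 libraries, no group term and leaving out each library. Added after seeing the data were the removal of 7 libraries with *Adora2a* of at least 300 TPM and, for the slope, the level of the striatal list as a covariate.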

Additional observations from a re-analysis of the deposited data

Results flagged for a closer look

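In each of the 6 groups, *Fos* and the 7 activity genes called for the fluoxetine-by-genotype term were searched for a library that stood apart from the other 7, by the gap to its nearest neighbour over the range on the log2 scale. Of 48 combinations of gene and group 5 stood out, and chance gives about 1 in 20 for independent, normally distributed values. The genes share their libraries, and 7 of them were picked by a test on these data, so that rate may not hold here. Of the 5, 3 were of *Fos*, the gene that ranked the libraries. *Fos* was low in WT vehicle replicate 3 (5.79 TPM, against 26.4 to 58.1 in the others), *Brd1*+/- vehicle replicate 1 (2.74 TPM, against 17.5 to 37.6) and *Brd1*+/- fluoxetine replicate 2 (4.20 TPM, against 16.1 to 43.5). These 3 libraries had *Adora2a* at 547, 452 and 484 TPM. *Plk2* was low in WT vehicle replicate 7 (67.0 TPM, against 123.6 to 204) and *Egr4* in *Brd1*+/- imipramine replicate 5 (6.11 TPM, against 16.2 to 32.0).

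The effect of fluoxetine differed between genotypes, by the interaction term of the limma fit, for *Gadd45b* (1.3025 on the log2 scale), *Plk2* (1.66), *Nr4a1* (1.50), *Egr2* (2.49), *Inhba* (2.60), *Npas4* (1.62) and *Egr4* (2.28).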

How the results depend on the processing

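The number of activity genes at least 1 log2 unit higher (18) stayed within 1.5 times under every other pseudocount, filter, scaling and set size and ran from 14 to 18 without 1 library. It was 11 after re-ranking without the Adora2a-rich libraries. The median difference (0.43) ran from 0.39 to 0.50 without 1 library and was 0.28 with median-ratio scaling, 0.66 with sets of 8, 0.23 with 2 and 2 per group and 0.48 after re-ranking. Across the 6 groups (2 called), the count was 1 with a pseudocount of 0.01, median-ratio scaling, no trend or the replicate block, 0 with the filter of 1 TPM, and 4 without the Adora2a-rich libraries. It ran from 0 to 5 without 1 library and moved by over 1.5 times for 36 of 48 libraries, all but *Brd1*+/- fluoxetine 6, *Brd1*+/- imipramine 3, 5 and 8, *Brd1*+/- vehicle 3, 6 and 8, WT fluoxetine 5 and 8, WT imipramine 3 and 8 and WT vehicle 7. For the interaction (7 called), the count was 4 with no filter, the replicate block, 1 fit of all 48 libraries or without the Adora2a-rich libraries, and ran from 2 to 13 without 1 library. It fell to 2 to 4 without *Brd1*+/- vehicle 2, 4 or 7, WT vehicle 2, 4 or 5, *Brd1*+/- fluoxetine 1, 2, 3, 5, 7 or 8, or WT fluoxetine 1, 2, 3 or 7, and rose to 12 or 13 without WT vehicle 7, *Brd1*+/- fluoxetine 4 or 6, or WT fluoxetine 6. For genotype under fluoxetine (1 called), the count was 2 with median-ratio scaling and 0 with no trend, the replicate block or 1 fit of all 48 libraries. It ran from 0 to 4 without 1 library, being 0 without *Brd1*+/- fluoxetine 3, 5, 7 or 8 or WT fluoxetine 1, 2, 3, 5 or 7 and 2 to 4 without *Brd1*+/- fluoxetine 4 or 6 or WT fluoxetine 4, 6 or 8. The slope count was 0 in every alternative and ran from 0 to 0 without 1 library. The cause of these moves was not tested. Libraries with the same replicate number did not deviate together more than others did. The median r was -0.05 over 120 such pairs, 40 of them over 0.1. It was -0.01 over 840 pairs with other numbers, 293 of them over 0.1. These values cannot exclude that some libraries were paired. The difference between the sets changed sign for 16 of the 66 genes after re-ranking (8 from below to above 0, *Egr3*, *Homer1*, *Inhba* and *Plk2* among them) and for 8 with 2 and 2 per group (*Arc*, *Egr1*, *Egr4* and *Nr4a1* among them). All of these differed by at most 0.55 log2 units between the full sets. Since TPM does not carry the depth of a library, what depth limits could not be measured.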
